A study of Mus musculus with 12 samples.

Results

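The comparison described here is between organoids of a single Spdef-knockout clone of the mouse pancreatic tumour line mT6 that carried either an SPDEF over-expression vector or an empty vector. There were 2 libraries of each, 4 of the 12 libraries in the series, chosen by their sample titles. Both groups share the deletion of Spdef and the tumour genotype given in the labels (KrasLSLG12D/+; Trp53LSLR172H/LOH; Pdx1-Cre, strain C57/Bl6). In this genotype Cre from the Pdx1 promoter acts in pancreatic epithelium and its precursors, and the organoids were grown from such tumours in Matrigel with mouse complete organoid medium. Read beside them were 2 libraries of an mT6 clone with a Rosa26 knockout and the empty vector, called the control, and the matching 4 libraries of a second line of the same labelled strain and genotype, mT69a. Each condition of a line is 1 clone, so a clone's own traits and its condition cannot be told apart between knockout and control. Whether the 2 libraries of a group stem from separate cultures is not stated in the labels, and the p-values take in the spread between those libraries and nothing wider.

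SPDEF is a transcription factor of the ETS family. In the gut, airway and other mucous epithelia it acts late in the differentiation of secretory cells, where it is known for driving genes of mucin folding, glycosylation and export. Mucins are very large glycoproteins that are folded in the endoplasmic reticulum, covered with O-linked sugars in the Golgi and released in granules, and cells that make them carry a large secretory machinery. In pancreatic ductal adenocarcinoma, mucous and gastric-like genes belong to the subtype called classical.

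Reads of the targeted gene were examined first. Spdef (ENSMUSG00000024215, chr17:27714352-27728955, minus strand, GRCm38) had 30 and 29 counts in the control, 0 and 2 in the knockout, and 1 and 0 in the libraries labelled SPDEF vector. Knockout and vector-labelled libraries both lay at or under the floor of 3 counts summed over a group, so the mouse Spdef counts do not show the vector and no fold is given. Whether a transcript of the vector would be counted as mouse Spdef was not tested. The vector therefore rests on the label alone, and the libraries are called vector-labelled throughout. Depth was 10897005 and 21670653 counts in knockout libraries 1 and 2 and 9111713 and 9094295 in vector-labelled libraries 1 and 2. Mitochondrially encoded genes took 13.9% and 15.1% of the counts in libraries 1 of the groups and 23.9% and 27.1% in libraries 2, so libraries 2 had the higher share in both groups. The 7 epithelial and ductal markers summed to 5132 to 6942 CPM (counts scaled by the effective size of each library) in the knockout and 3811 to 6473 CPM in the vector-labelled libraries, with Krt19 the highest. Of 7 fibroblast markers 6 had no count, and Pdgfra, the other, was at most 0.587 CPM. Immune markers summed to 5.12 to 10.7 CPM in the knockout and 2.35 to 5.96 CPM in the vector-labelled libraries, nearly all from Cd68, with Cd3e and Adgre1 at 0. Summed endothelial, acinar, tuft and enteroendocrine markers each stayed at or below 0.822 CPM.

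Of 14473 genes tested, 389 (2.69%) differed between vector-labelled and knockout libraries at an adjusted p below 0.05. The test was edgeR's quasi-likelihood test in a fit of all 12 libraries, with Benjamini-Hochberg adjustment. Higher in the vector-labelled libraries were 224 genes (1.55%), and 165 (1.14%) were lower. The change exceeded 2-fold for 156 of the higher and 113 of the lower genes. Among the 15 largest rises were Slc12a8, Gkn3, Creb3l4, Creb3l1, Muc2 and St6galnac2, and among the 15 largest falls Nox1, Psca, Ptpn22, Lpar1, Tmc5 and Isx. For none of the 389 did the 2 groups overlap, and they did not overlap for 35.5% of all genes tested either. Libraries with the same number deviated together, and a fit that takes the number as a block called 1055 genes (7.29%), 550 higher (3.8%) and 505 lower (3.49%), among them 388 of the 389. Fitted alone, the 4 libraries compared gave 42 calls (33 higher, 9 lower), and 1745 (833 higher, 912 lower) with the block. The calls rest on few libraries. Leaving out knockout library 2, knockout library 1 or vector-labelled library 2 left 166, 180 and 188 calls, and 115 of the 389 genes (72 higher, 43 lower) passed in all 12 fits that each left out 1 library. In RNA from bulk organoids, fewer cells of a type and less RNA per cell cannot be told apart.

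**Figure D1:**
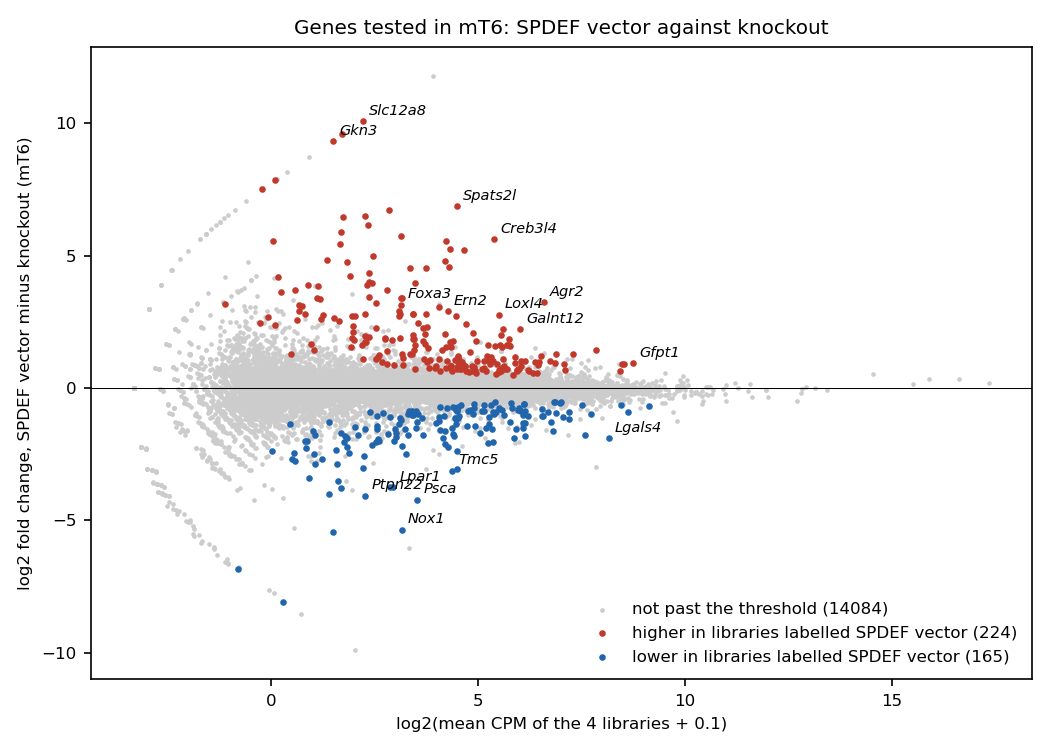
Each point is 1 of the 14473 tested genes. The horizontal axis gives log2 of the mean CPM of the 4 libraries plus 0.1 and the vertical axis the fitted log2 fold change, vector-labelled minus knockout. Red marks the 224 genes called higher and blue the 165 called lower. The fitted values of genes with a group at 0, such as Slc12a8 and Gkn3 at the top, are no measure of size, and their bounds are given in the text. Most points lie near 0, and the called genes reach farther above 0 than below it.

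The regulators Creb3l4 and Creb3l1 were among the 15 largest rises. Creb3l4 (ENSMUSG00000027938, chr3:90237500-90243512) encodes a transcription factor held in the membrane of the endoplasmic reticulum and released by cleavage in the Golgi. It stood at 1.33 and 1.87 CPM in the knockout and at 77.9 and 84.8 CPM in the vector-labelled libraries. Its log2 fold change was 5.62 ± 0.18 (SE from the fit of all 12 libraries, n = 2 and 2, edgeR adjusted p = 2.85e-07). Its relative Creb3l1 (ENSMUSG00000027230, chr2:91982328-92024502) went from 0.708 and 0.836 CPM to 30.3 and 43.2 CPM, a change of 5.53 ± 0.28 (adjusted p = 9.34e-06). Both genes lay far above every knockout library in both vector-labelled libraries, and above the control libraries too, which read 3.58 and 3.07 CPM for Creb3l4 and 6.70 and 8.64 CPM for Creb3l1. Foxa3, a forkhead factor of goblet cells (ENSMUSG00000040891, chr7:19013284-19023538), read 1.68 and 1.82 CPM in the knockout and 17.5 and 13.7 CPM in the vector-labelled libraries (log2 fold change 3.14 ± 0.25, adjusted p = 0.000179). The control libraries held 9.06 and 6.39 CPM of Foxa3, between the other groups. Foxa2, the related forkhead factor of gut and pancreas, went the other way, from 5.31 and 4.23 CPM to 1.17 and 0.704 CPM (-2.33 ± 0.42, adjusted p = 0.0158). The Foxa2 call was lost without vector-labelled library 2 or knockout library 1, with adjusted p up to 0.125.

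Other members of the list for maturation of secretory cells that rose were Agr2, Ern2, Rap1gap and Rab27b. Agr2 (ENSMUSG00000020581, chr12:35992907-36004087) encodes a disulfide isomerase that mucous cells need to fold mucins. It read 12.4 and 24.2 CPM in the knockout, 107 and 243 CPM in the vector-labelled and 90.6 and 108 CPM in the control libraries, and the rise from the knockout was 3.24 ± 0.58 on the log2 scale (adjusted p = 0.0225). The vector-labelled libraries differed more than 2-fold from each other, yet neither overlapped the knockout, and the lower lay beside the controls. The Agr2 call was lost without vector-labelled library 2 or either knockout library, with adjusted p from 0.0944 to 0.170. Ern2 (ENSMUSG00000030866, chr7:122169893-122186207), the stress sensor IRE1 beta that is found in mucous epithelia, went from 3.01 and 5.76 CPM to 24.7 and 43.0 CPM (2.90 ± 0.41, adjusted p = 0.00506), above the control values of 8.23 and 13.4 CPM. Rap1gap, which switches off the small GTPase Rap1, went from 5.66 and 5.95 CPM to 34.9 and 41.4 CPM (2.71 ± 0.17, adjusted p = 2.58e-05), and Creb3l4, Creb3l1, Foxa3, Ern2 and Rap1gap passed in all 12 fits with 1 library left out. Rab27b, a GTPase of secretory granules, changed little by comparison, from 35.9 and 35.03 CPM to 55.6 and 70.8 CPM (0.83 ± 0.17, adjusted p = 0.0262), and its call was lost without vector-labelled library 2 or either knockout library (up to 0.161).

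Of the 32 genes listed for maturation of secretory cells, 23 passed the count filter. Higher were 7 of these 23 (Foxa3, Creb3l1, Creb3l4, Agr2, Ern2, Rap1gap and Rab27b), against 1.55% of all genes tested, and 1 was lower. The median log2 fold change of the 23 was 0.44, beside -0.015 for all genes tested. The member that fell was Clca1, a secreted goblet cell protein, with 37.0 and 26.6 CPM in the knockout, 11.3 and 13.3 CPM in the vector-labelled and 158 and 115 CPM in the control libraries (-1.36 ± 0.21, adjusted p = 0.0059). Clca1 thus stood lowest of the 3 groups in the vector-labelled libraries, where the other 7 stood above the knockout. With 1 library left out, between 6 and 9 members of the list were called.

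Mucin genes were called in both directions. Of 20 listed mucins, trefoil factors and gastrokines 13 were measured, 4 rose (Muc1, Muc2, Muc5b and Gkn3) and 1 fell (Muc20), beside 1.55% and 1.14% of all genes, and their median log2 fold change was -0.05. With the replicate block, 4 rose and 4 fell, beside 3.8% and 3.49% of all genes. Gkn3 (ENSMUSG00000030048, chr6:87383256-87388935), a gastrokine of the stomach, had no count in the knockout libraries and 3.62 and 7.16 CPM in the vector-labelled libraries, at least 56.8-fold higher (edgeR adjusted p = 0.00291). The control libraries held 0.0762 and 0.0357 CPM of Gkn3. The call held in every fit with 1 library left out, with adjusted p up to 0.0265. None of the other calls in the list did so, and without knockout library 2 Gkn3 was the only member of the list called.

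Muc2 (ENSMUSG00000025515, chr7:141690340-141754693), the gel-forming mucin of intestinal goblet cells, read 0.531 and 1.38 CPM in the knockout and 10.9 and 67.5 CPM in the vector-labelled libraries, 5.24 ± 0.96 on the log2 scale (edgeR adjusted p = 0.0346). Muc5b, a gel-forming mucin of airways and glands, read 0.354 and 1.48 CPM against 5.73 and 20.1 CPM (3.70 ± 0.75, adjusted p = 0.0303). For both genes library 2 was the higher of each group, and no vector-labelled library fell into the knockout range. The Muc2 call was lost in 7 of 12 fits, those without either knockout library, vector-labelled library 2, either mT6 control library or either vector-labelled mT69a library (adjusted p 0.0539 to 0.218). The Muc5b call was lost in 5, without either knockout library, vector-labelled library 2 or either mT69a control library (0.0540 to 0.221). Muc1, a mucin anchored in the cell membrane, went from 296 and 247 CPM to 414 and 436 CPM (0.65 ± 0.13, adjusted p = 0.0281). Its call was lost in 5 fits, without any 1 of the 4 libraries compared or without vector-labelled mT69a library 1 (0.0517 to 0.209).

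Other mucous genes stood lower or did not pass. Muc20, a membrane mucin, read 4.86 and 5.46 CPM in the knockout, 1.17 and 1.76 CPM in the vector-labelled and 14.5 and 19.1 CPM in the control libraries (-1.82 ± 0.28, edgeR adjusted p = 0.00693), and its call was lost without vector-labelled library 1 (0.0522) or knockout library 2 (0.0535). Muc5ac, the gel-forming mucin of gastric surface cells, read 15.9 and 35.7 CPM in the knockout and 5.61 and 11.3 CPM in the vector-labelled libraries (-1.62 ± 0.60, adjusted p = 0.277). Its groups did not overlap, and with the replicate block the adjusted p was 0.00116. Tff1, a trefoil factor packed with gastric mucus, read 18.3 and 28.8 CPM against 3.74 and 1.996 CPM (-3.04 ± 0.75, adjusted p = 0.0829, and 0.0488 with the block). Tff2 and Muc6 stayed at or below 1.996 CPM in these 4 libraries and did not pass (adjusted p = 0.546 and 0.690). So among genes of gastric-type mucus, Muc5ac and Tff1 had lower values in the vector-labelled libraries while Gkn3 was higher. Gata6, a factor used to define the classical subtype, had no count in any mT6 library.

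Enzymes that build O-linked sugars on mucins were called in 1 direction. Of 35 listed, 28 were measured, 5 rose (Galnt12, Gcnt4, St3gal4, St6galnac2 and B4galnt3) and none fell, beside 1.55% and 1.14% of all genes, with a median log2 fold change of 0.29 beside -0.015 for all genes. The count below the threshold without adjustment was 10 higher and 1 lower, and DESeq2 called 6 higher and 0 lower. Galnt12, which attaches the first sugar, read 20.9 and 24.7 CPM in the knockout and 93.9 and 118 CPM in the vector-labelled libraries (2.21 ± 0.20, adjusted p = 0.000477). St3gal4, a sialic acid transferase, read 24.8 and 28.2 CPM against 85.0 and 78.1 CPM (1.62 ± 0.13, adjusted p = 0.000209). St6galnac2, which caps the first sugar with sialic acid, read 0.619 and 1.77 CPM against 36.3 and 61.3 CPM (5.22 ± 0.50, adjusted p = 0.000729). The annotation holds a second gene model under the symbol St6galnac2 that may share its reads, so how the counts divide between the models is uncertain. All 3 enzymes stood higher in both vector-labelled libraries than in any knockout or control library and passed in all 12 fits with 1 library left out. B4galnt3, which adds N-acetylgalactosamine to sugar chains, rose by 1.86 ± 0.32 (adjusted p = 0.0126) and Gcnt4, which branches O-glycans, by 1.02 ± 0.23 (0.0415). These calls were lost without either knockout library or vector-labelled library 2, and Gcnt4 also without a knockout or vector-labelled library of mT69a, with adjusted p up to 0.101 and 0.237.

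**Figure D2:**
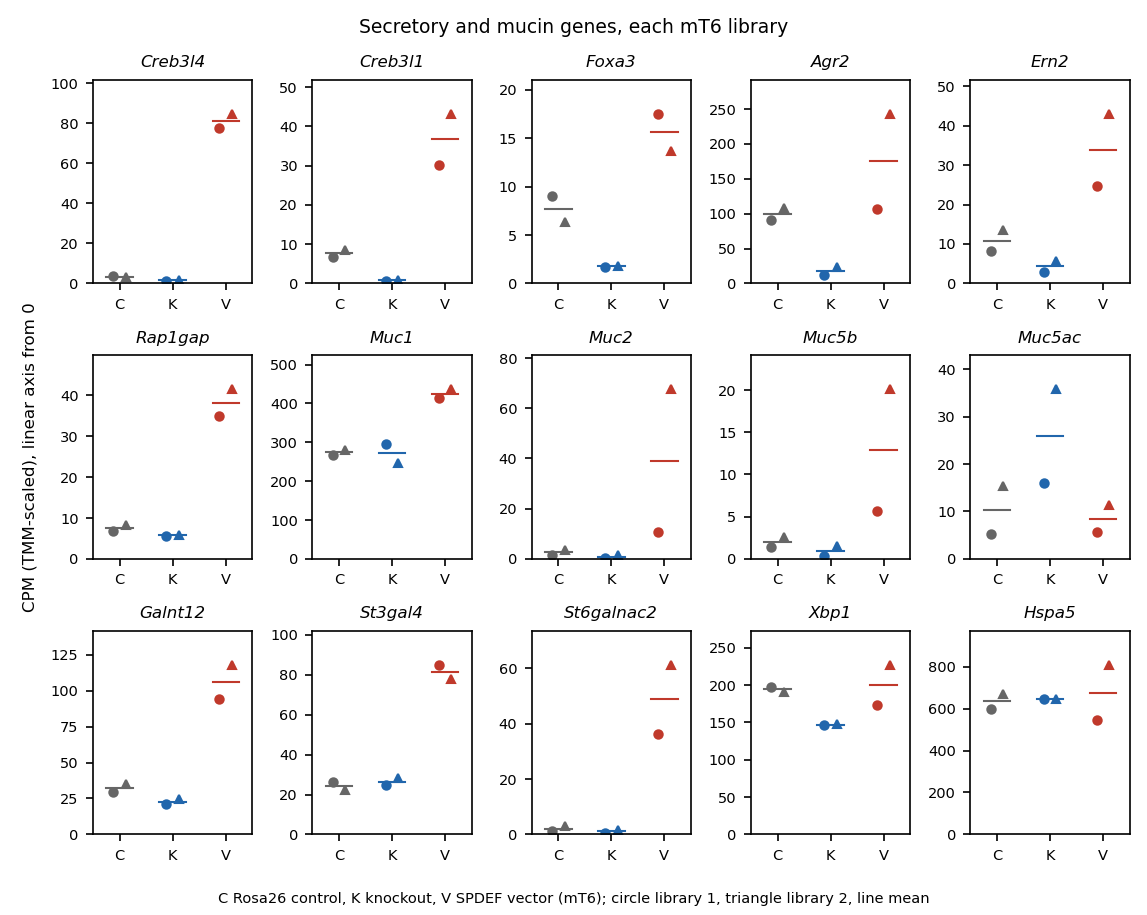
Each panel shows 1 gene in the 6 mT6 libraries, as CPM on a linear axis from 0. C is the Rosa26 control, K the knockout and V the libraries labelled SPDEF vector, circles are libraries 1, triangles libraries 2 and lines group means. Creb3l4, Creb3l1, Rap1gap, Galnt12, St3gal4 and St6galnac2 are high in V alone, Agr2 and Foxa3 are low in K alone, Muc2 and Muc5b differ widely between the V libraries, and Xbp1 and Hspa5 show little separation.

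Of the 3 lists of folding stress pathways, 1 held called genes. When unfolded proteins build up, IRE1 splices the messenger of XBP1, ATF6 raises chaperones and PERK works through ATF4. Xbp1 itself read 147 and 147 CPM in the knockout and 173 and 227 CPM in the vector-labelled libraries (0.44 ± 0.16, edgeR adjusted p = 0.228). The chaperone Hspa5 read 647 and 644 CPM against 545 and 808 CPM (0.07 ± 0.19, adjusted p = 0.963) and Dnajb9, an early XBP1 target, 25.5 and 23.5 CPM against 18.5 and 23.1 CPM (-0.23 ± 0.20, adjusted p = 0.757). For Hspa5 the vector-labelled values lay on either side of the knockout values. Of 45 measured IRE1-XBP1 targets 3 rose and none fell, beside 1.55% and 1.14% of all genes. With the replicate block 5 rose and 1 fell, beside 3.8% and 3.49% of all genes. The 3 were Dnajc10, a reductase that opens wrong disulfide bonds (102 and 148 CPM against 228 and 451 CPM; 1.44 ± 0.30, adjusted p = 0.0355), and Edem1 and Edem3, which mark misfolded glycoproteins for degradation (0.67 ± 0.15 and 0.75 ± 0.13; adjusted p = 0.0407 and 0.0112). None of the 3 held in every fit: without knockout library 1 or vector-labelled library 2 no member of the list was called, and adjusted p reached 0.223, 0.229 and 0.101. In edgeR none of 21 ATF6 chaperones passed in either direction, with 2 higher and 1 lower at an unadjusted p below 0.05 and none in DESeq2. None of 37 PERK-ATF4 targets passed, with 2 higher and 4 lower unadjusted and none in DESeq2. With the block, 1 ATF6 chaperone rose, and 2 PERK-ATF4 targets rose and 1 fell. Of the IRE1-XBP1 targets, DESeq2 called 3 higher and 1 lower, beside 304 and 271 of all genes tested.

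Among 62 measured genes of transport from endoplasmic reticulum to Golgi, 4 rose and none fell, beside 1.55% and 1.14% of all genes. With the replicate block 4 rose and 1 fell, beside 3.8% and 3.49% of all genes. Lman1l, a lectin related to the cargo receptor ERGIC-53, had no count in the knockout and 4.09 and 8.69 CPM in the vector-labelled libraries, at least 67.3-fold higher (edgeR adjusted p = 0.00696, and 0.0604 without knockout library 2). Yipf1, a Golgi membrane protein, went from 13.6 and 14.5 CPM to 30.4 and 32.3 CPM (1.16 ± 0.15, adjusted p = 0.00329). Ergic1, which cycles between these compartments, went from 97.3 and 91.2 CPM to 166 and 189 CPM (0.91 ± 0.13, adjusted p = 0.00448, and 0.0513 without knockout library 2). Gorasp1, which helps to stack the Golgi, went from 14.3 and 15.1 CPM to 22.4 and 27.4 CPM (0.76 ± 0.16, adjusted p = 0.0346), and its call was lost in 9 of 12 fits, up to 0.202 without vector-labelled library 2. Every vector-labelled value of these genes lay above both knockout values. Without knockout library 2, 1 member of the list was called.

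Several of the 15 largest rises were in none of the lists above. Slc12a8, of the cation-chloride cotransporter family, had no count in the knockout and 5.38 and 12.8 CPM in the vector-labelled libraries, at least 95.7-fold higher (edgeR adjusted p = 0.00329). Spats2l (ENSMUSG00000038305, chr1:57774162-57948394) read 0.0885 and 0.541 CPM against 40.5 and 48.1 CPM (6.87 ± 0.41, adjusted p = 2.58e-05). Faim2, an inhibitor of Fas-driven cell death, read 0.177 and 0.0492 CPM against 9.23 and 9.51 CPM, a ratio of summed counts of 98.8 (95% exact counting interval 33.2 to 484; adjusted p = 2.58e-05). These 3 genes were near or at 0 in both knockout libraries and passed with any 1 library left out. Psors1c2 and Slco4c1, an organic anion transporter, had ratios of 101 (27.3 to 844; adjusted p = 0.000941) and 64.2 (21.4 to 316; adjusted p = 0.00142) against knockout groups with no more than 3 counts. Gramd1b, which carries sterol from the cell membrane, had a log2 fold change of 6.16 ± 0.70 (adjusted p = 0.0017) and Plac9b of 4.99 ± 0.56 (0.00133).

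Gas6, the ligand of the TAM receptor kinases, read 0.0885 and 0.148 CPM in the knockout and 6.08 and 22.1 CPM in the vector-labelled libraries (6.72 ± 0.94, edgeR adjusted p = 0.00457). Pde2a, which breaks down cyclic nucleotides, read 0.796 and 0 CPM against 9.23 and 24.9 CPM (5.73 ± 0.97, adjusted p = 0.0132). In both genes vector-labelled library 2 was the higher, by more than 2-fold. The Gas6 call was lost without knockout library 1 (0.0519) or 2 (0.0684) and the Pde2a call without vector-labelled library 2 (0.0757). Loxl4, an enzyme that crosslinks extracellular matrix (ENSMUSG00000025185, chr19:42593982-42612813), went from 10.7 and 12.2 CPM to 82.0 and 75.4 CPM (2.77 ± 0.14, adjusted p = 9.34e-06), with 11.96 and 14.6 CPM in the control. The orphan receptor Gprc5b rose by 3.22 ± 0.22 (adjusted p = 5.41e-05) and the immediate early nuclear receptor Nr4a1 by 2.44 ± 0.24 (0.000564). Nr4a1 was the only 1 of 26 measured immediate early and heat shock genes to be called, beside 1.55% of all genes higher. With the replicate block 2 rose and none fell, beside 3.8% and 3.49% of all genes.

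Among abundant genes the rises were smaller. Gfpt1, the rate-limiting enzyme for the sugar donor UDP-N-acetylglucosamine, had 313 and 276 CPM in the knockout and 573 and 566 CPM in the vector-labelled libraries (0.95 ± 0.18, edgeR adjusted p = 0.0207), and its call was lost without any 1 of these 4 libraries (0.0676 to 0.158). Acly, which makes acetyl-CoA from citrate, had 252 and 262 CPM against 458 and 511 CPM (0.92 ± 0.12, adjusted p = 0.00257). Wfdc2, a small secreted protease inhibitor of mucous epithelia, had 243 and 251 CPM against 454 and 481 CPM (0.92 ± 0.12, adjusted p = 0.00257). Acly and Wfdc2 passed with any 1 library left out, and for all 3 the control libraries lay below the vector-labelled ones, at 206 to 263 CPM.

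Promoter sequences are shown because the vector is labelled with a DNA-binding factor whose preferred core, CCGGAT, differs from the general ETS core CCGGAA in its last base. The 250 bases before the annotated start were taken from RefSeq (GRCm38.p6). They were found for 180 of the 224 higher and 122 of the 165 lower genes and for 10011 of the 14473 tested. Foxa3, Gkn3 and Muc2 stand for secretory genes that rose, and Dnajc10 and the integrin gene Itga1 for called genes with the SPDEF-type core. Each window runs 5′ to 3′ on the strand of the gene, in lower case, with capitals marking either core, the forkhead motif GTAAACA, or the reverse complement of any of them.
Foxa3, chr7:19023540-19023789, minus strand: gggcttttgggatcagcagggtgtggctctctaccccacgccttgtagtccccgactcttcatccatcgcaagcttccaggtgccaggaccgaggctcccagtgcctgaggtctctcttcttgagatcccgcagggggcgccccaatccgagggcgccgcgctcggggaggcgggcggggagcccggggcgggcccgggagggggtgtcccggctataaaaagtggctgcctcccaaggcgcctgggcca
Gkn3, chr6:87388936-87389185, minus strand: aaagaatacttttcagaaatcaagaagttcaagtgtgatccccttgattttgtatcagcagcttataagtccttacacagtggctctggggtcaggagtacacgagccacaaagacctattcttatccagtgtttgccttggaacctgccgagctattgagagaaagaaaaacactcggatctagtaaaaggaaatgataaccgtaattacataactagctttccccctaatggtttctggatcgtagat
Muc2, chr7:141690090-141690339, plus strand: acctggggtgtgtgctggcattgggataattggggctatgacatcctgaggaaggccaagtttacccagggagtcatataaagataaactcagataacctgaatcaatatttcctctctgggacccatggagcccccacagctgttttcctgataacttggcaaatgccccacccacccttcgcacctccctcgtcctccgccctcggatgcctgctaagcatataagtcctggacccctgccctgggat
Dnajc10, chr2:80315216-80315465, plus strand: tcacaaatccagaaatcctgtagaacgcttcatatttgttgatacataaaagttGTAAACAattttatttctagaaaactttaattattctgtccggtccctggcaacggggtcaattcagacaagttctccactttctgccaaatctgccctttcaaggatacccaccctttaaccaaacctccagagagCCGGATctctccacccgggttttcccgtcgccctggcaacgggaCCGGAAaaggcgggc
Itga1, chr13:115101965-115102214, minus strand: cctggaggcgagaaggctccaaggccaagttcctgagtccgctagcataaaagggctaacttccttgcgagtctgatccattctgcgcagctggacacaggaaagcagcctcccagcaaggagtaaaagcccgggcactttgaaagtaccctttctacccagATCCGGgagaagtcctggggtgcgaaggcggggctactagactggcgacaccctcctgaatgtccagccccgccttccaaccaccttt

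Dnajc10 held all 3 motifs, with CCGGAT beginning at position -59 from the start, CCGGAA at -15 and GTAAACA at -196, and Itga1 held the SPDEF-type core on the opposite strand, at -88. Itga1 read 0.265 and 0.197 CPM in the knockout and 0.935 and 1.996 CPM in the vector-labelled libraries (2.67 ± 0.57, edgeR adjusted p = 0.037, lost in 7 of 12 fits, up to 0.263 without vector-labelled library 2). No listed motif was found in the windows of Foxa3, Gkn3 and Muc2. CCGGAT was present on either strand upstream of 21 of the 180 higher genes (11.7%), 5 of the 122 lower genes (4.10%), 9.23% of all tested genes and 4.94% of all 32851 promoters of the same length in the table. The share among the higher genes was near that of the tested genes, and the difference was not tested. CCGGAA was present for 17.2% of the higher, 13.9% of the lower and 25.9% of the tested genes and in 12.03% of all promoters. The unfolded-protein element read by XBP1 and CREB3-type factors (TGACGTGG or TGACGTGT) was found for 0.556% of the higher and none of the lower genes, with 1.48% of the tested genes. The forkhead motif was found for 2.22%, 3.28% and 2.66%. Higher genes had 1.40 promoters each in the table, lower genes 1.33 and tested genes 1.27, and a gene counts where any of its promoters holds the motif.

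The largest falls were of genes with differing roles. Psca (ENSMUSG00000022598, chr15:74714839-74717069), a small surface protein of stomach and prostate, read 20.2 and 23.4 CPM in the knockout and 0.935 and 1.41 CPM in the vector-labelled libraries (-4.21 ± 0.42, edgeR adjusted p = 0.000693). The control libraries held 2.89 and 6.07 CPM of Psca, so the knockout was highest of the 3 groups and the vector-labelled group lowest. Ptpn22, a phosphatase best known from lymphocytes, followed the same order with 9.46 and 8.41 CPM in the knockout, 0.584 and 0.470 CPM in the vector-labelled and 1.83 and 1.86 CPM in the control libraries (-4.06 ± 0.39, adjusted p = 0.000548). Bcl2l15, of the BCL2 family, read 17.5 and 9.59 CPM in the knockout, 1.17 and 0.822 CPM in the vector-labelled and 2.67 and 1.57 CPM in the control libraries (-3.75 ± 0.43, adjusted p = 0.00142). These 3 calls held with any 1 library left out.

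Lpar1, a receptor for lysophosphatidic acid, read 10.9 and 17.5 CPM in the knockout and 0.935 and 1.17 CPM in the vector-labelled libraries (-3.75 ± 0.39, edgeR adjusted p = 0.000855). Tmc5, of the transmembrane channel-like family, read 38.9 and 35.4 CPM against 3.51 and 5.05 CPM (-3.12 ± 0.30, adjusted p = 0.000548), and Isx, an intestinal homeobox factor, 34.2 and 45.1 CPM against 3.27 and 6.34 CPM (-3.05 ± 0.29, adjusted p = 0.000548). Fbln1, a matrix protein, had a log2 fold change of -3.49 ± 0.43 (adjusted p = 0.00205) and Krt27, a keratin, of -3.41 ± 0.42 (0.00206). All 5 passed with any 1 library left out. Nox1, an oxidase of colon epithelium that makes superoxide (chrX:134086421-134221956), read 21.2 and 13.1 CPM in the knockout, 0.351 and 0.470 CPM in the vector-labelled and 101 and 29.6 CPM in the control libraries (-5.35 ± 0.82, adjusted p = 0.00982). Nox1 was thus low in both vector-labelled libraries and spread widely elsewhere, and its call was lost without vector-labelled library 1 (0.0885) or 2 (0.113). Adgrg7, an adhesion receptor, was lower by a ratio of summed counts of 47.5 (95% exact counting interval 13.0 to 395; adjusted p = 0.00439, and 0.0501 without vector-labelled library 2). Fbxw19 had no count in the vector-labelled libraries and was at least 13.7-fold lower (adjusted p = 0.0412), a call lost in 10 of the 12 fits (up to 0.166 without knockout library 2). Ppbp, a chemokine best known from platelets, read 7.43 and 4.28 CPM against 0.584 and 0.235 CPM (-3.79 ± 0.71, adjusted p = 0.0201, lost without either vector-labelled library or knockout library 1, up to 0.170). Ugt1a7c, which joins glucuronic acid to drugs and bile products, read 3.45 and 6.74 CPM against 0.584 and 0.822 CPM (-2.87 ± 0.44, adjusted p = 0.00596, and 0.0510 without vector-labelled library 1).

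Among abundant genes, Pgm2l1, which makes a sugar bisphosphate, fell from 300 and 291 CPM to 78.5 and 96.1 CPM (-1.76 ± 0.16, edgeR adjusted p = 0.00052), with 219 and 225 CPM in the control. Lgals4, a galectin of the gut lining, fell from 368 and 535 CPM to 82.8 and 161 CPM (-1.89 ± 0.28, adjusted p = 0.0059), with 436 and 522 CPM in the control. Ptgs1, which begins prostaglandin synthesis, fell from 30.3 and 32.5 CPM to 6.43 and 7.16 CPM (-2.21 ± 0.22, adjusted p = 0.000628). The vector-labelled libraries were lowest of the 3 groups for these genes, and the calls held with any 1 library left out. Emp1 and Mal, both 4-pass membrane proteins of epithelia, had 528 and 503 CPM and 298 and 265 CPM in the knockout against 325 and 228 CPM and 159 and 128 CPM in the vector-labelled libraries (-0.90 ± 0.16 and -0.97 ± 0.16; adjusted p = 0.0155 and 0.0112). For both genes the control values (233 and 233 CPM, 123 and 137 CPM) lay near the vector-labelled ones. Both calls were lost without knockout library 1 or vector-labelled library 2, and that of Emp1 also without knockout library 2, with adjusted p up to 0.0890 and 0.0863. Fam213a, a redox protein, went from 208 and 134 CPM to 65.1 and 44.5 CPM (-1.64 ± 0.33, adjusted p = 0.0321), and Gda, which breaks down guanine, from 382 and 477 CPM to 253 and 291 CPM (-0.66 ± 0.14, adjusted p = 0.0343). Their calls were lost in 7 and 9 of 12 fits, up to 0.204 without vector-labelled library 2 and 0.231 without knockout library 2.

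**Figure D3:**
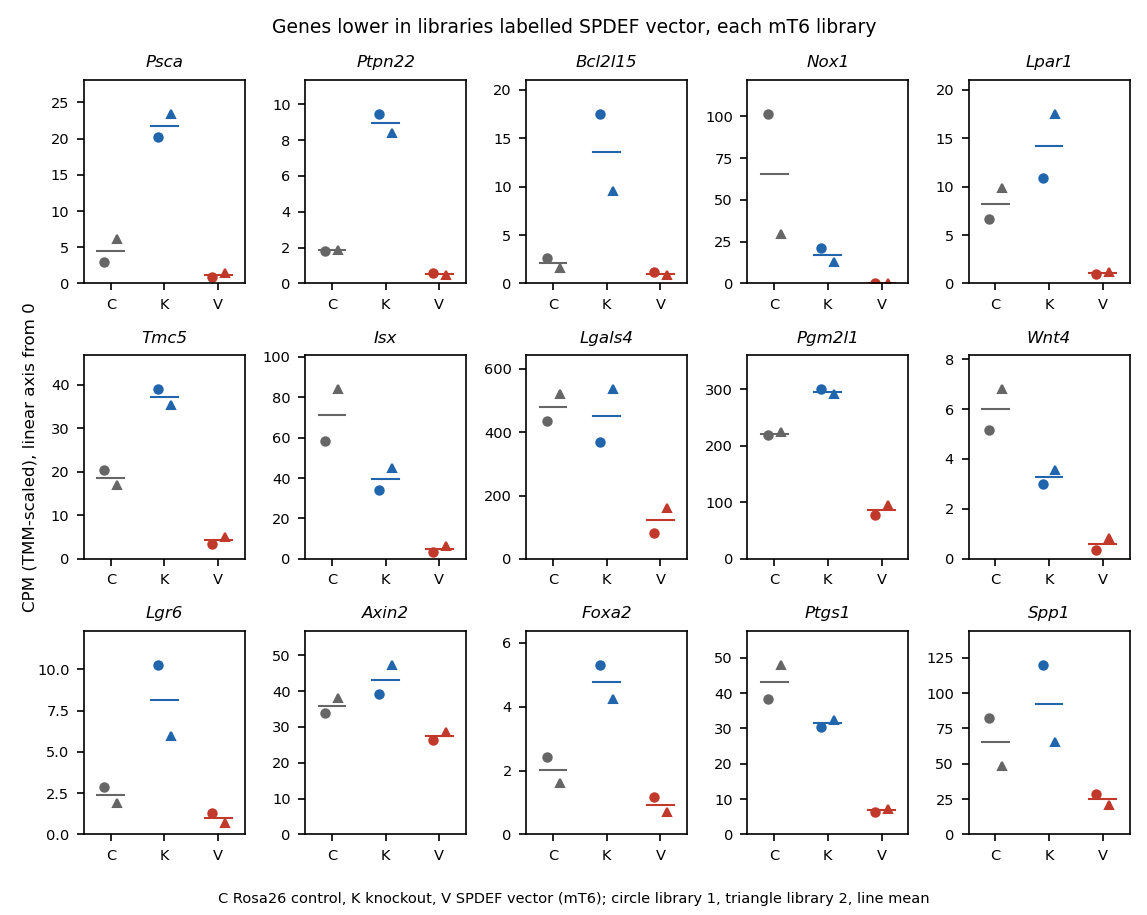
Each panel shows 1 gene in the 6 mT6 libraries, as CPM on a linear axis from 0, with C the Rosa26 control, K the knockout and V the libraries labelled SPDEF vector. Circles are libraries 1, triangles libraries 2 and lines group means. In all 15 panels both V values lie below both K values. Psca, Ptpn22, Bcl2l15 and Lgr6 peak in K, while Nox1, Isx, Wnt4 and Ptgs1 are higher in C than in K.

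In edgeR's fit without the block, Wnt pathway genes were called in the lower direction. Of 30 listed, 24 were measured, 4 fell and none rose, beside 1.14% of all genes lower, and their median log2 fold change was -0.24. With the replicate block 9 fell and 1 rose, beside 3.49% and 3.8% of all genes. DESeq2 called 5 lower and 1 higher, beside 271 and 304 of all genes tested. Wnt4, a ligand, read 3.01 and 3.54 CPM in the knockout and 0.351 and 0.822 CPM in the vector-labelled libraries (-2.48 ± 0.37, edgeR adjusted p = 0.00522). Lgr6, a receptor for R-spondins, read 10.3 and 5.95 CPM against 1.29 and 0.704 CPM (-3.00 ± 0.49, adjusted p = 0.0096). Notum and Axin2, feedback inhibitors that the pathway itself induces, read 12.4 and 11.8 CPM against 4.56 and 4.81 CPM (-1.36 ± 0.21, adjusted p = 0.00737) and 39.1 and 47.3 CPM against 26.4 and 28.6 CPM (-0.65 ± 0.14, adjusted p = 0.0394). In all 4 genes the groups did not overlap. Wnt4 alone passed in every fit: Lgr6 was lost without knockout library 1 or vector-labelled library 2 (up to 0.0847), Notum without vector-labelled library 2 (0.0524), and Axin2 in 9 of 12 fits (up to 0.261 without knockout library 2). Without vector-labelled library 2, 1 member of the list was called.

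In edgeR's fit without the block, classical markers were called in both directions and basal-like markers in the lower direction. The difference between the lists was not tested. Measured genes passed the count filter over all 12 libraries, so Gata6, with no count in mT6, is among the classical and gastric ones. Of 39 measured classical markers, 5 rose (Foxa3, Agr2, Muc1, Rap1gap and Ttc39a) and 4 fell (Foxa2, Lgals4, Krt20 and Plac8), beside 1.55% and 1.14% of all genes, with a median of -0.35. With the block 6 rose and 8 fell, beside 3.8% and 3.49% of all genes. The rising members other than Ttc39a are also in the secretory or mucin lists. Ttc39a went from 24.1 and 30.2 CPM to 54.9 and 56.1 CPM (1.03 ± 0.13, edgeR adjusted p = 0.00238), and the groups were far apart. Krt20, a keratin of gut epithelium, and Plac8 changed by -1.63 ± 0.35 and -1.151 ± 0.25 (adjusted p = 0.0412 and 0.0426), calls that were each lost in 9 of 12 fits (up to 0.177 and 0.241 without knockout library 1). Of 29 measured basal-like markers, 3 fell (Anxa8, Il1rn and Kremen1) and none rose, beside the same shares of all genes, with a median of -0.53. DESeq2 called 7 lower and 2 higher, beside 271 and 304 of all genes tested. With the block 8 fell and 3 rose, and without knockout library 1 or vector-labelled library 2 none was called. Anxa8, an annexin of stratified epithelium, went from 98.7 and 81.9 CPM to 38.1 and 22.9 CPM (-1.56 ± 0.27, adjusted p = 0.0137), and Il1rn, the decoy ligand of the interleukin 1 receptor, from 36.3 and 28.7 CPM to 10.9 and 8.45 CPM (-1.74 ± 0.28, adjusted p = 0.00796). Both markers stood below the control values as well, which were 74.3 and 58.8 CPM and 27.6 and 16.4 CPM. Kremen1, a receptor that limits Wnt signalling, read 82.2 and 77.8 CPM against 52.5 and 43.3 CPM (-0.74 ± 0.16, adjusted p = 0.0404), a call lost in 8 of 12 fits, up to 0.231 without vector-labelled library 2. Krt17 did not pass the count filter.

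The lists described next held 1 to 3 calls each and are read beside 1.55% of all genes higher and 1.14% lower. Among 17 measured gastric genes Gkn3 rose, Psca and Lypd2 fell, and with the block 3 rose and 5 fell, beside 3.8% and 3.49% of all genes. Lypd2, a surface protein of the same family as Psca, read 54.1 and 67.2 CPM against 14.5 and 14.2 CPM (-2.08 ± 0.37, edgeR adjusted p = 0.0156), lost without any 1 of the 4 libraries (0.0519 to 0.104). Of 21 measured ductal and progenitor markers Spp1 (osteopontin) and Aldh1a1 fell (-1.90 ± 0.33 and -1.46 ± 0.25, adjusted p = 0.0159 and 0.0132), and none rose. Without knockout library 1 or vector-labelled library 2 neither was called (up to 0.140 and 0.114); Spp1 was also lost without vector-labelled library 1 and Aldh1a1 without knockout library 2. Of 19 measured genes of epithelial-mesenchymal transition, Itga5 rose and Fbln1 fell, and the Itga5 call (adjusted p = 0.048) was lost in all 12 fits. Of 26 junction genes, Cldn2, a claudin that lets cations pass, rose by 1.21 ± 0.22 (adjusted p = 0.0157, up to 0.108 without knockout library 2) and Grhl3, a factor of epithelial barriers, fell (-1.77 ± 0.19, adjusted p = 0.000855). The Cldn2 call was also lost without knockout library 1 or vector-labelled library 2. Of 42 proliferation genes E2f2 alone was called in the main fit, with a log2 fold change of -0.97 ± 0.18 (adjusted p = 0.0169). Its call was lost without any 1 of the 4 libraries. With the block, 1 ductal and progenitor marker rose and 3 fell, and 2 transition genes rose and 2 fell. In that fit 1 junction gene rose and 2 fell, and 1 proliferation gene rose and 1 fell.

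No member passed edgeR's test in the lists of cholesterol synthesis (24 measured; at an unadjusted p below 0.05, 1 higher and 2 lower), interferon response (43; 0 and 1), hypoxia and glycolysis (33; 0 and 2), p53 targets (23; 1 and 1), epithelial ETS factors (16; 1 and 1), mitochondrially encoded genes (15; 0 and 0) and MHC class I presentation (13; 0 and 1). DESeq2 called 1 hypoxia gene lower and none in the other lists. With the replicate block 4 hypoxia genes fell, and 1 gene rose and 1 fell in each of the cholesterol and ETS lists. Of all genes, 3.8% were higher and 3.49% lower with the block. The interferon list had the lowest median of these, -0.41, with members from -5.01 to 1.27. Among 26 MAPK output genes Emp1, which fell, was the only call, beside 1.14% of all genes lower. With the block 3 MAPK output genes rose and 1 fell. Of the 30 tuft and enteroendocrine markers 4 were measured, and Ptgs1 was the only call. Of 30 fibroblast, immune and endothelial markers 4 were measured and none was called, with none at an unadjusted p below 0.05 and none in DESeq2. The level of these marker lists is given above, and their part in the results was not tested.

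**Figure D4:**
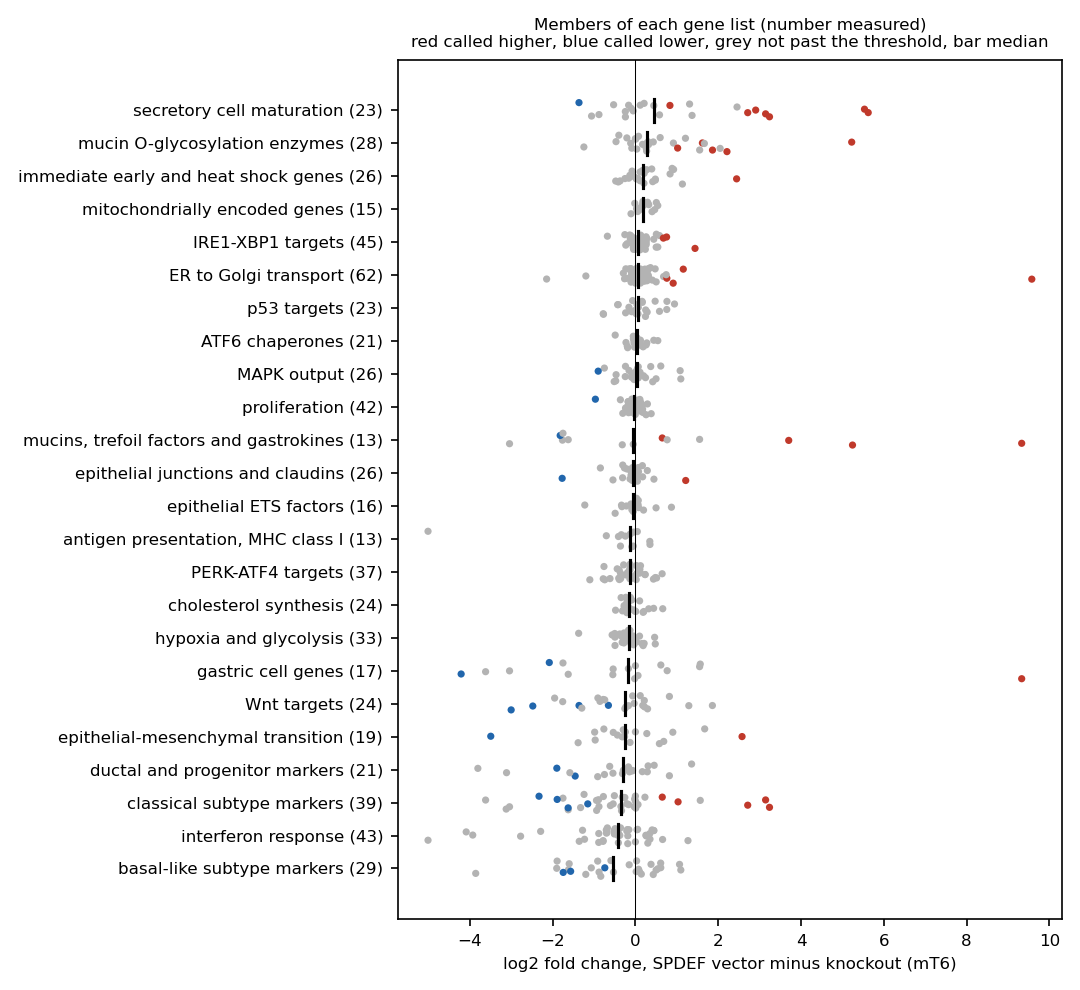
Each point is a measured member of a gene list, placed by its fitted log2 fold change, vector-labelled minus knockout, with the list and its number of measured members at the left. Red points were called higher, blue points lower, grey points did not pass, and black bars are list medians; members of 1 list are spread vertically at random. Lists with under 10 measured members, and those drawn up after the values had been seen, are not drawn. The lists drawn were themselves chosen with earlier results of these data known. Of the lists drawn, secretory maturation (0.44) and O-glycosylation (0.29) have the highest medians, and the basal-like (-0.53) and interferon (-0.41) lists the lowest. The point at 9.33 is Gkn3 and that at 9.57 Lman1l, fitted values of genes with no count in the knockout.

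The same comparison in mT69a shares no library with that in mT6. Both come from the 1 fit of all 12 libraries, so their tests share an estimate of the spread of each gene. In mT69a 615 of the 14473 genes (4.25%) were called, 372 higher (2.57%) and 243 lower (1.68%). Of the 224 genes higher in mT6, 217 (96.9%) had a fold change above 0 in mT69a, beside 47.7% of all genes tested, and 167 were also called higher. Of the 165 lower in mT6, 156 (94.5%) were below 0 in mT69a, beside 51.9% of all genes, and 91 were also called lower. The median log2 fold change of the 224 was 1.57 in mT6 and 1.32 in mT69a, and that of the 165 was -1.36 and -0.99. These genes were chosen by their mT6 values, so the medians do not compare the size of the effect between the lines. Ick, a kinase of cilia, was the 1 gene called in opposite directions. It read 28.0 and 30.2 CPM in the mT6 knockout and 17.4 and 19.8 CPM in the mT6 vector-labelled libraries (-0.64 ± 0.14, edgeR adjusted p = 0.0361), and 15.7 and 19.1 CPM against 26.0 and 25.4 CPM in mT69a (0.57 ± 0.14, adjusted p = 0.0445). The difference between the lines did not pass for Ick (adjusted p = 0.11, and 0.00932 with the replicate block), and its call in mT6 was lost in 10 of 12 fits.

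Tested directly, the effect of the vector differed between the lines for 2 of 14473 genes (0.0138%), Nectin1 and the antisense gene Gm27177, both with the smaller value in mT6. There were 712 at an unadjusted p below 0.05, DESeq2 called 46, and the fit with the replicate block called 55. Nectin1 (chr9:43743984-43807461) encodes a cell adhesion protein. In mT6 it read 21.6 and 21.2 CPM in the knockout and 66.0 and 61.0 CPM in the vector-labelled libraries (1.57 ± 0.22, edgeR adjusted p = 0.00401). In mT69a it read 0.376 and 0.174 CPM against 21.7 and 22.8 CPM (6.19 ± 0.34), and the difference was -4.62 ± 0.42 (adjusted p = 0.00824; lost without any 1 of the 4 mT69a libraries, 0.0549 to 0.122). The mT6 knockout level of Nectin1 was near that of the vector-labelled mT69a libraries. Of the other secretory genes, Ern2 rose by 2.90 in mT6, while in mT69a it had 2 counts in the knockout and a ratio of summed counts of 262 (95% exact counting interval 72.2 to 2172). The difference for Ern2 did not pass (adjusted p = 0.261, and 0.00184 with the block). Loxl4 and Gprc5b had fold changes of 2.77 and 3.22 in mT6 and 1.52 and 1.27 in mT69a on the log2 scale, with adjusted p for the difference of 0.0839 and 0.0707, and 0.00656 for each with the block. The Nox1 fall of mT6 had no counterpart to compare, since Nox1 stayed at or below 0.180 CPM in the mT69a libraries of this comparison.

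**Figure D5:**
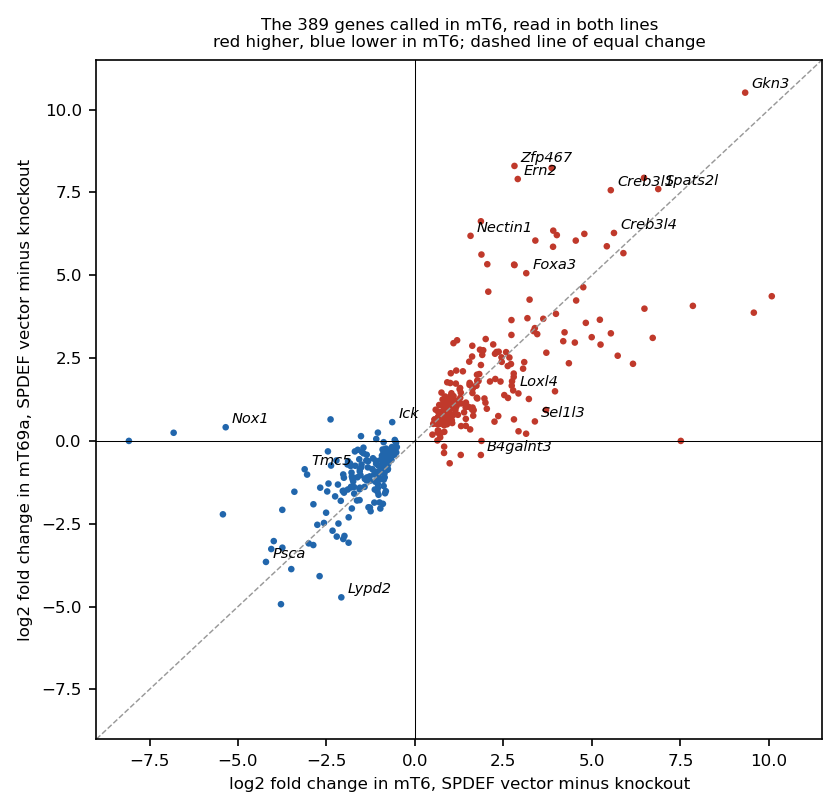
The 389 genes called in mT6, by their fitted log2 fold change in mT6 (horizontal) and in mT69a (vertical), each vector-labelled minus knockout. Red genes were called higher and blue genes lower in mT6, and the dashed line marks equal change. Most points fall in the lower left and upper right corners, and Nectin1, Ern2 and Zfp467 lie well above the line. A few genes such as Nox1 and Ick lie on the other side of 0 in mT69a. Nox1 had very low counts in the mT69a libraries, so its place on the vertical axis gives no direction.

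Set against the control clone, a comparison that uses the same vector-labelled libraries, 1245 genes (8.6%) differed in the vector-labelled libraries, 565 higher (3.9%) and 680 lower (4.7%). With the block it was 2750, and it was 594 or 625 without control library 2 or 1 and 716 or 725 without vector-labelled library 2 or 1. The knockout differed from the control for 468 genes (3.23%), 185 higher (1.28%) and 283 lower (1.96%). The levels fell into several orders. Creb3l4, Loxl4 and St3gal4 stood above the control by 4.62, 2.56 and 1.745 on the log2 scale (edgeR adjusted p = 8.82e-07, 1.61e-05 and 6.96e-05), where the knockout had differed from the control by -0.999, -0.22 and 0.13 (adjusted p = 0.0194, 0.497 and 0.716). Agr2 and Ergic1 did not differ from the control by the test (0.82 and 0.14, adjusted p = 0.420 and 0.596), with 90.6 and 108 CPM and 161 and 161 CPM in the control. Cldn2 was at 189 and 181 CPM in the control, 54.9 and 55.3 CPM in the knockout and 96.8 and 159 CPM in the vector-labelled libraries (-0.53 against control, adjusted p = 0.173). Clca1, Muc20 and Nox1 moved further from the control, by -3.47, -3.52 and -7.28 (adjusted p = 3.22e-05, 8.14e-05 and 0.000957), after knockout values of -2.11, -1.70 and -1.94 against control (adjusted p = 0.000601, 0.00344 and 0.0800). For Emp1 and Mal, raised in the knockout by 1.14 and 1.11 (adjusted p = 0.00494 and 0.00584), the vector-labelled libraries did not differ from the control by the test (0.24 and 0.14, adjusted p = 0.428 and 0.697).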

How the data were processed

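RNA of 12 organoid libraries was measured by stranded total RNA-seq, per the labels' protocols. The submitters' processing notes name FastQC 0.11.8, STAR 2.5.2b, RSEM 1.3.0 and GRCm38.p6, and the deposited gene tables hold the authors' RSEM expected counts and TPM. Symbols came from GENCODE M21, which matched 53620 of 53715 gene IDs, and the IDs without a symbol held 0.0109% of the counts.

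The members, gene lists and tests were chosen with earlier results of these data known. Expected counts were rounded and fitted in edgeR 4.0.16 (robust quasi-likelihood, TMM, filterByExpr by group, 14473 genes) over all 12 libraries as 6 group means with 6 residual degrees of freedom, and the biological coefficient of variation was 19.2%. All tests were two-sided, adjusted p-values were Benjamini-Hochberg over all 14473 genes with a threshold of 0.05, and CPM used effective library sizes. Each ± is an SE computed as the absolute log2 fold change over the square root of the F statistic. It thus rests on the spread estimated over all 12 libraries. Depths in the 4 libraries compared were 9094295 to 21670653 counts, and the floor of 3 counts summed over a group was 0.0948 CPM in the knockout and 0.176 CPM in the vector-labelled libraries. A fold against a group at 0 was set against this floor, ratios with 1 to 3 counts have exact 95% intervals, and both cover counting error only.

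Genes named were 17 chosen outright, the 15 largest rises and 15 largest falls called with a mean of at least 1 CPM, 6 rises and 6 falls by CPM difference, up to 4 called members of each of 27 lists by p, and 8 for the difference between lines. Genes of 3 added lists, and Clca1, Foxa2, Gcnt4, Krt20, Plac8, Rab27b, Itga1, Zfp467 and Gm27177, were chosen after their values were seen. Deviations of same-numbered libraries correlated in each of 15 group pairs (0.205 to 0.531, over the 0.1 required). The labels give no reason for this correlation. The main fit left the replicate number out, and an alternative fit took it as a block. Alternatives were DESeq2 1.42.0, RLE, no filter, the block, each library left out, limma 3.58.1 on log2(TPM + 1) and log2(TPM + 0.1), and the 4 libraries alone. Scripts were tested on simulated data (R 4.3.3, Python 3.11.15). Isoform tables were not used.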

Additional observations from a re-analysis of the deposited data

Results flagged for a closer look

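The effect of the vector label differed between the lines for 2 genes, by the test of the difference itself. For Nectin1 the log2 fold change in mT6 minus that in mT69a was -4.62 ± 0.42 (edgeR adjusted p = 0.00824, and 0.00055 with the replicate block), with 21.6 and 21.2 CPM in the mT6 knockout and 0.376 and 0.174 CPM in the mT69a knockout. The call was lost without any 1 of the 4 mT69a libraries compared, with adjusted p from 0.0549 to 0.122. In limma on log2(TPM + 1) and log2(TPM + 0.1) the difference was -0.79 and -2.65 and did not pass.

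Gm27177, an antisense gene (chr14:69582164-69683286), read 6.19 and 7.68 CPM in the mT6 knockout and 5.73 and 7.16 CPM in the mT6 vector-labelled libraries (-0.11 ± 0.24). In mT69a it read 0.323 and 0.435 CPM against 4.75 and 5.14 CPM (3.71 ± 0.33), and the difference was -3.83 ± 0.41 (edgeR adjusted p = 0.0191, and 0.00055 with the block). The difference was lost in 8 of 12 fits with 1 library left out (those without any 1 of the 4 mT69a libraries compared, mT69a control library 1, mT6 knockout library 2 or either mT6 vector-labelled library), up to 0.264 without mT69a knockout library 1, and it did not pass on either TPM scale (-0.979 and -1.51). The library kit keeps strand, but the strand setting of the counting is not given in the sources used here, so reads of Gm27177 and of genes opposite to it may not be told apart.

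Of genes for which the difference did not pass, Cerk had fold changes of 1.09 in mT6 and 2.95 in mT69a on the log2 scale (adjusted p = 0.0777, and 0.00192 with the block). Those of Fxyd3 were 1.62 and 2.87 (0.11, and 0.0116 with the block), of Slc41a2 2.07 and 4.50 (0.182, and 0.0319) and of Tbc1d16 1.19 and 3.04 (0.182, and 0.0225).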

How the results depend on the processing

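Between mT6 vector-labelled and knockout libraries, 389 genes were called (224 higher, 165 lower). The count was 1055 (550 and 505) with the replicate block, 950 (450 and 500) with no filter on low counts, 229 (124 and 105) on log2(TPM + 1), 196 (107 and 89) on log2(TPM + 0.1) and 146 (88 and 58) on log2(TPM + 1) with no filter. The 4 libraries alone gave 42 calls (33 and 9), and 1745 (833 and 912) with the replicate block. DESeq2 called 575 genes (304 higher and 271 lower). With 1 library left out the count ran from 166 to 373 (91 to 209 higher, 68 to 164 lower). The difference between lines was called for 2 genes, for 46 in DESeq2, 196 with no filter, 55 with the block, 7 on log2(TPM + 1), 27 on that scale with no filter, and 0 to 4 with 1 library left out. Against the control, 1245 genes were called, 1887 with no filter, 2750 with the block, 539, 503 and 366 on the 3 TPM settings in the same order, 410 in the 6 mT6 libraries alone, and 594 to 1105 with 1 library left out. The cause of these shifts was not tested.

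Spdef summed to 0.08 TPM in the vector-labelled and 0.14 TPM in the knockout libraries. Its fitted log2 value ran from -3.10 to 2.95 with 1 library left out. The sign changed without knockout library 2 and without vector-labelled library 2 (0.85). Both groups lay at or under the floor, so these fitted Spdef values are no measure of size. Uncalled values changed sign for Hspa5 (-0.0099 on log2(TPM + 1), with and without the filter, -0.010 on log2(TPM + 0.1), and -0.24 to 0.32 with 1 library left out), Muc6 (-0.17 to 7.09 with 1 left out) and Gm27177 (-0.28 to 0.057, and 0.039 without vector-labelled library 1). The negative values of Hspa5 and Muc6 came without vector-labelled library 2. The 7.09 of Muc6, a gene with few counts, came without knockout library 2 and is no measure of size. Of 103 called genes that the text may name, none reversed, 46 passed with any 1 library left out, and 103 passed with the replicate block, which changed no call among them. DESeq2 kept 102 (1 had no adjusted p), no filter 102, the TPM settings 64, 59 and 39, the 4 libraries alone 27, and these with the block 102.

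Groups of 2 libraries limit every comparison. The vector-labelled libraries are the shallowest, and genes with few counts have wide intervals.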

Other observations

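The 3 gene groups described next were drawn up after their values had been seen, so their counts describe and support nothing. Enzymes that make and move the activated sugars used for glycosylation were called in 1 direction, with 8 of 34 measured genes higher and none lower, beside 1.55% and 1.14% of all genes tested (11 and 2 with the replicate block, beside 3.8% and 3.49%), a median log2 fold change of 0.05, and 3 calls without knockout library 1 or vector-labelled library 2. Pmm2, which makes mannose 1-phosphate, read 25.2 and 29.3 CPM in the knockout and 76.3 and 85.9 CPM in the vector-labelled libraries (1.57 ± 0.13, edgeR adjusted p = 0.000193). Gnpnat1, which acetylates glucosamine 6-phosphate after Gfpt1, read 22.2 and 22.4 CPM against 49.7 and 53.9 CPM (1.21 ± 0.15, adjusted p = 0.00188). Tsta3, which completes GDP-fucose, read 20.3 and 21.6 CPM against 44.4 and 39.9 CPM (1.01 ± 0.13, adjusted p = 0.00226). These 3 were the members that passed with any 1 library left out. Gne, the first enzyme of sialic acid synthesis, read 7.61 and 12.8 CPM against 28.4 and 31.9 CPM (1.54 ± 0.26, adjusted p = 0.0112, up to 0.0680 without knockout library 1, and lost also without vector-labelled library 2). The other calls were Gfpt1, Mpi, Gmds and Galk2.

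Of genes of the enterocyte brush border, 7 of 23 measured were lower and none higher, beside 1.14% and 1.55% of all genes (10 and 0 with the block, beside 3.49% and 3.8%), with a median of -0.89, and 4 calls without knockout library 2. Vil1, the actin bundler villin, read 92.1 and 110 CPM in the knockout, 38.1 and 42.8 CPM in the vector-labelled and 180 and 179 CPM in the control libraries (-1.32 ± 0.14, edgeR adjusted p = 0.000921). Mall, a membrane protein of lipid rafts, read 66.0 and 54.0 CPM against 23.8 and 16.7 CPM (-1.56 ± 0.19, adjusted p = 0.00221), and Myo7b, a myosin of microvilli, 39.0 and 48.9 CPM against 14.3 and 18.5 CPM (-1.42 ± 0.22, adjusted p = 0.00669, and 0.0538 without knockout library 2). The control was highest for Vil1 and Myo7b and lay between the other groups for Mall. Ush1g, Isx, Krt20 and Lgals4 were the other calls.

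Of genes of stratified epithelium and the cornified envelope, 8 of 25 measured were lower and none higher, beside 1.14% and 1.55% of all genes (9 and 0 with the block, beside 3.49% and 3.8%), with a median of -1.11, and 1 was called without vector-labelled library 2. Slurp1, a secreted protein of skin, read 13.7 and 18.5 CPM in the knockout, 7.24 and 5.87 CPM in the vector-labelled and 4.34 and 5.36 CPM in the control libraries (-1.30 ± 0.24, edgeR adjusted p = 0.0160, lost without knockout library 2 or vector-labelled library 2, up to 0.162). Krt13, a keratin of moist surfaces, read 15.3 and 9.40 CPM against 4.09 and 1.996 CPM (-2.01 ± 0.36, adjusted p = 0.0154, lost without knockout library 1 or vector-labelled library 2, up to 0.106). In both genes the vector-labelled values lay nearer to the control than the knockout values did. The other calls were Ivl, Evpl, Lypd2, Grhl3, Serpinb11 and Anxa8.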
